A study of Homo sapiens with 9 samples.

Results

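The genes described here are 10 members of the Krüppel-like factor (KLF) family of transcription factors, KLF2, KLF3, KLF4, KLF5, KLF6, KLF7, KLF9, KLF10, KLF11 and KLF13, measured in MDA-MB-231 breast cancer cells that were exposed to the lactate dehydrogenase inhibitor GNE-140. Each was read from the probe sets that the array's annotation ties to its symbol alone, and all 10 had 1 such probe set, out of 22392 genes with a probe set of 1 symbol. RNA was profiled on 9 whole-transcript GeneChip Human Gene 2.1 ST arrays, which the titles divide into 2 sets. Set 1 holds 2 arrays of cells with GNE-140 and 3 of control cells, and set 2 holds 2 arrays with GNE-140 and 2 of control cells. The text of the paper gives other numbers of arrays per set, and the titles were followed here. The dose of 50 µM is stated for the series as a whole and the harvest at 24 h in a protocol shared by all samples. The inhibitor stock was made in DMSO, and neither the labels nor the methods state what the control flasks received. MDA-MB-231 is a triple-negative line from a pleural effusion, and all cells grew in high-glucose medium with serum, so that the results describe a single line under 1 culture condition. A further label, the source name, instead gives a Boswellia preparation for 6 of the 9 arrays (the 4 of GNE-140 and, in set 2, the 2 of control), and these unsettled conflicts touch every comparison that follows.

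Krüppel-like factors bind CACCC elements and GC-rich boxes in promoters through zinc fingers at their carboxyl end, and they differ mainly in the amino-terminal part that recruits partner proteins. KLF9, KLF10, KLF11 and KLF13 carry a motif that binds the corepressor SIN3A, KLF3 binds the corepressor CtBP, and KLF2, KLF4, KLF5, KLF6 and KLF7 act largely, though not solely, as activators through acetyltransferases. Several are immediate or early response genes whose mRNA turns over quickly, and in breast epithelium KLF4 and KLF5 are best known for their roles in differentiation and proliferation.

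Values for 53617 probe sets were deposited as log2 signals with no detection call. The median signal of an array lay between 1.32 and 1.36 in set 1 and between 2.27 and 2.31 in set 2, so levels were compared within a set only, and each of the 10 genes lay above the median of its array on all 9 arrays. In set 1 some deposited values recur exactly, among them 2 of the 5 values of KLF4, 2 of KLF7, 3 of KLF9 and 3 of KLF13. All 4 mesenchymal-like line genes examined (VIM, CD44, AXL and CAV1) lay above the array median on every array, against 2 of 6 luminal epithelial, 1 of 5 fibroblast, 0 of 3 leukocyte and 0 of 3 endothelial genes, and none of them passed the test. Since no label ties the arrays to separate cultures, the p-values rest on a spread between arrays that may be technical in part or whole. In RNA pooled from a whole flask, a change in every cell and a change in the share of cells that express a gene cannot be told apart.

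Exposure to GNE-140 was accompanied by higher KLF10, KLF6 and KLF11 mRNA, and by no KLF mRNA that fell past the threshold. In limma with the set as a block, at an adjusted p under 0.1 over all probe sets, 3 of the 10 genes rose, where 0.433% of all probe sets did, and 0 fell, where 0.532% did. Those shares include 27899 probe sets with no symbol. With the test confined to the 23866 probe sets with 1 symbol, 3 members rose and 879 probe sets passed in either direction, a larger share than the 517 of all 53617. The 879 were not counted by direction, so the 0.433% has no counterpart there. The members were chosen with earlier results of these data known. At an unadjusted p under 0.05, 5 genes were higher (KLF2, KLF5, KLF6, KLF10 and KLF11), against 6% of all probe sets, and 1 was lower (KLF9), against 4.42%. The estimates were positive for 9 genes and negative for KLF9, and the sign was the same in both sets for all 10. Their median log2 fold change was 0.24, beside 0.0049 over all probe sets, and the median of its absolute size was 0.30, beside 0.093. None of the 10 exceeded a 2-fold change, a size that 95 of the 517 probe sets past the threshold reached. In the ranking of all probe sets by log2 fold change, 99.2% lay below KLF10, 99% below KLF6, 95.8% below KLF11 and 3.79% below KLF9.

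**Figure D1:**
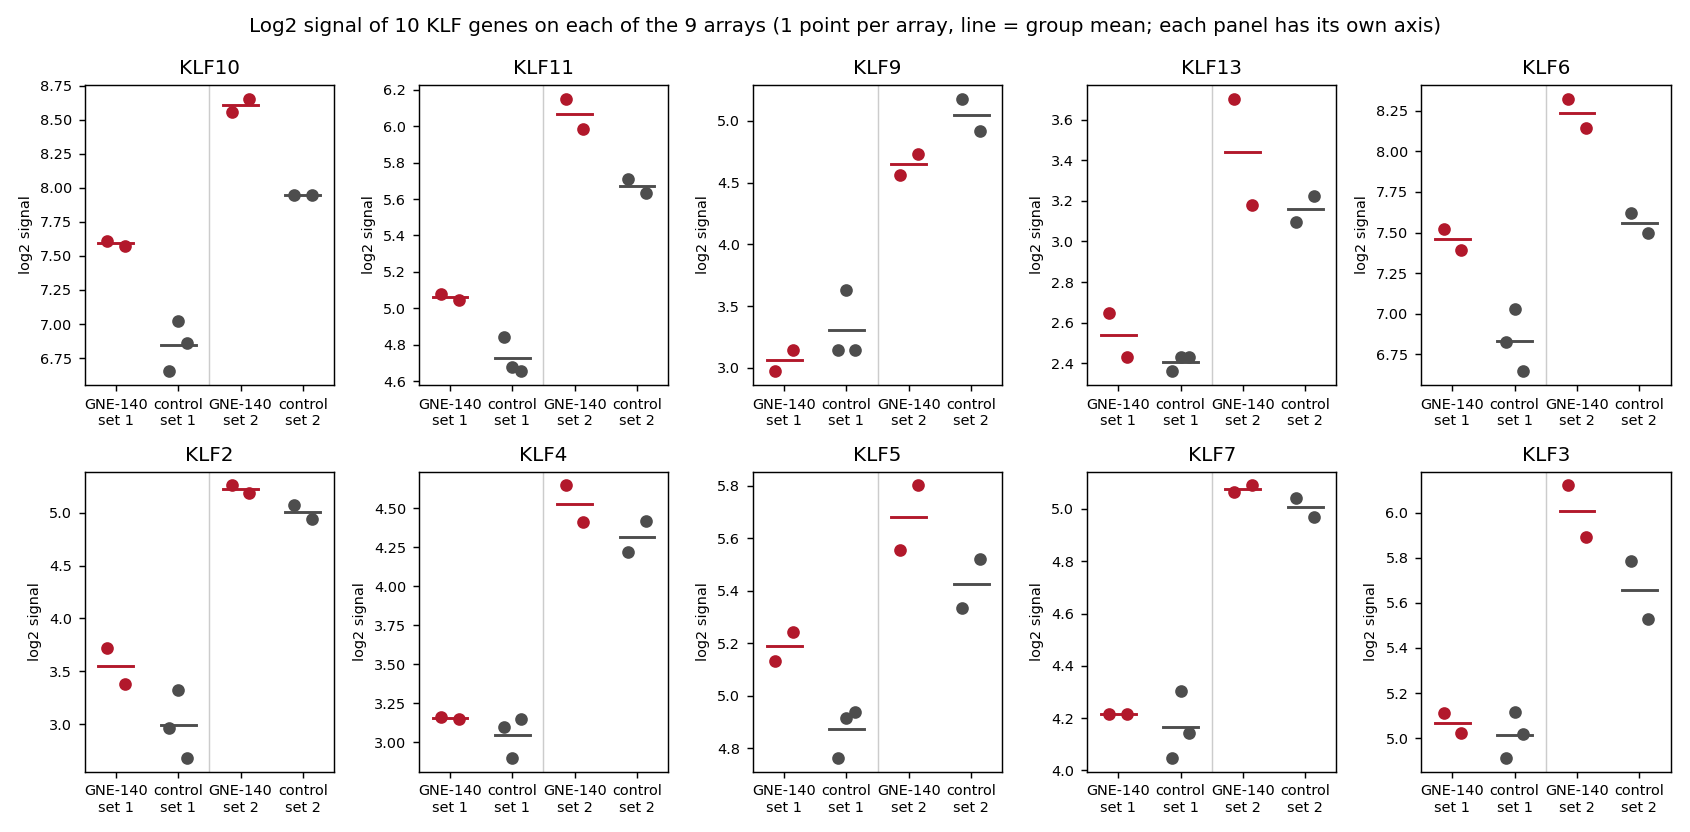
Log2 signal (vertical axis, scaled separately for each gene) of the 10 KLF genes on each of the 9 arrays, GNE-140 arrays in red to the left of the control arrays in grey within each set; a point is an array and a line the mean of its group. For KLF10, KLF6, KLF11, KLF5 and KLF2 every red point lies above every grey point of its set, for KLF9 the red points lie below the grey ones in set 2 only, and the remaining genes overlap in at least 1 set.

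Among the factors that bind SIN3A, KLF10 and KLF11 rose, whereas KLF9 and KLF13 did not pass the test. KLF10, first described as a TGF-beta-inducible early gene that represses growth, had log2 signals of 7.61 and 7.57 on the GNE-140 arrays of set 1, against 6.65, 7.03 and 6.86 on its control arrays. In set 2 it had 8.56 and 8.66 with GNE-140, against 7.95 and 7.95 in control. Every GNE-140 array thus exceeded every control array of its set, by a margin wider than the range of the controls. The log2 fold change was 0.71 (SE 0.082, 95% interval 0.52 to 0.89), which is 1.63-fold, with an adjusted p of 0.0152 from limma, the 66th smallest p of all probe sets. It was 0.75 in set 1 alone and 0.66 in set 2 alone.

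KLF11, the closest relative of KLF10 and a repressor also induced by TGF-beta, had log2 signals of 5.08 and 5.04 with GNE-140 in set 1, against 4.84, 4.68 and 4.65 in control. In set 2 its signals were 6.15 and 5.98 with GNE-140, against 5.71 and 5.63 in control. The groups did not overlap in either set, but the gap to the highest control was narrower than for KLF10. Its log2 fold change was 0.36 (SE 0.068, 95% interval 0.21 to 0.52), or 1.29-fold, with an adjusted p of 0.0748 from limma. This call was lost when the arrays were quantile normalised (adjusted p = 0.111 from limma) or centred on their medians (adjusted p = 0.106), and when any array other than control A of set 1 was left out (adjusted p of 0.138 to 0.193).

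KLF11 has 2 annotated start regions among RefSeq's promoters (GRCh38.p14, 250 bases before to 50 bases after a start), both of which are printed because it is a gene that rose and because together they hold more GGGCGG strings than those of any other member matched. They lie at chr2:10043579-10043878 and chr2:10043971-10044270 on the plus strand, and capitals mark CACCC or GGGCGG on either strand, the letters of the elements that the family itself binds.
KLF11 start region a: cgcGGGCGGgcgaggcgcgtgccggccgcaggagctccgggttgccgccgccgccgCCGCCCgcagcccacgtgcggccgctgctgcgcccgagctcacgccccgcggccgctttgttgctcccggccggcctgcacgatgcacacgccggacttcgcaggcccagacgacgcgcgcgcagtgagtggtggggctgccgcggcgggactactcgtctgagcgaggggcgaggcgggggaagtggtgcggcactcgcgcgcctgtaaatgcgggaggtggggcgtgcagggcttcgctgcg
KLF11 start region b: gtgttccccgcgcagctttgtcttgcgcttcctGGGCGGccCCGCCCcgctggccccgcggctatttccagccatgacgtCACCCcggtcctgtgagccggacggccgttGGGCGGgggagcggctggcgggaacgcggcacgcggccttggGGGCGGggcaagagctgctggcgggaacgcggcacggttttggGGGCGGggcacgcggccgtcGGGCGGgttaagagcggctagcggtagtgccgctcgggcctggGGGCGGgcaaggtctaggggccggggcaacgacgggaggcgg
Region a holds the string GGGCGG 2 times and CACCC 0 times, at a GC content of 77.3%. In region b GGGCGG occurs 7 times and CACCC 1 time, at a GC content of 75.3%.

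KLF9, a glucocorticoid- and thyroid hormone-responsive repressor, was the member with a negative estimate. It had log2 signals of 2.97 and 3.15 with GNE-140 in set 1, against 3.15, 3.63 and 3.15 in control, so that the groups touched. In set 2 it had 4.56 and 4.73 with GNE-140, below both control arrays at 5.18 and 4.92. The log2 fold change was -0.32 (SE 0.122, 95% interval -0.60 to -0.04), which did not pass after adjustment (adjusted p = 0.425 from limma).

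KLF13, which regulates lymphocyte and cardiac genes, had log2 signals of 2.65 and 2.43 with GNE-140 in set 1, against 2.36, 2.43 and 2.43 in control, and 3.70 and 3.18 with GNE-140 in set 2, against 3.09 and 3.22 in control. The groups overlapped in both sets, and the log2 fold change of 0.20 (95% interval -0.06 to 0.45, adjusted p = 0.582 from limma) had an interval that spanned 0.

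Of the factors that act largely as activators, KLF6 rose and KLF2, KLF4, KLF5 and KLF7 did not pass. KLF6, a widely expressed growth-restraining factor that activates CDKN1A, had log2 signals of 7.52 and 7.39 with GNE-140 in set 1, against 6.83, 7.03 and 6.64 in control. In set 2 the signals were 8.33 and 8.14 with GNE-140, against 7.62 and 7.50 in control. No GNE-140 array overlapped the controls of its set. The log2 fold change was 0.65 (SE 0.091, 95% interval 0.44 to 0.85), or 1.57-fold, with an adjusted p of 0.0285 from limma. It was 0.62 in set 1 alone and 0.67 in set 2 alone. Leaving out control A, control B or GNE-140 A of set 2 moved the adjusted p just past the threshold, to 0.101, 0.103 and 0.103 from limma.

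The RefSeq start region of KLF6, at chr10:3785160-3785459 on the minus strand (GRCh38.p14), is shown as that of the other gene that rose and is listed. It holds 2 GGGCGG and no CACCC on either strand, again in capitals, at a GC content of 70.7%.
KLF6 start region: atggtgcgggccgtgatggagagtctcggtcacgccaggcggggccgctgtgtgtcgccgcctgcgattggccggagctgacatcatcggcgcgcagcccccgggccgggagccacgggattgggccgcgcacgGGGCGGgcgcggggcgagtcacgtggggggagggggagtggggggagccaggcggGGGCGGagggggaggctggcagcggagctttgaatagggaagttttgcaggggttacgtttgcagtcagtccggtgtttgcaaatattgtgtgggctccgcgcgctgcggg

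KLF2, the flow-responsive factor that keeps endothelium and T cells quiescent, had the largest standard error of the 10 genes with the set as a block. Its log2 signals were 3.72 and 3.37 with GNE-140 in set 1, against 2.96, 3.32 and 2.68 in control, and 5.26 and 5.19 with GNE-140 in set 2, against 5.07 and 4.94 in control. All GNE-140 arrays exceeded the controls of their set, in set 1 narrowly. The log2 fold change of 0.40 (SE 0.145, 95% interval 0.07 to 0.73) did not pass (adjusted p = 0.388 from limma), being 0.56 in set 1 and 0.22 in set 2.

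KLF5, a pro-proliferative factor of basal-type breast epithelium, had log2 signals of 5.13 and 5.24 with GNE-140 in set 1, against 4.76, 4.92 and 4.94 in control. In set 2 its signals were 5.56 and 5.80 with GNE-140, against 5.33 and 5.52 in control. The order was the same as for KLF6, with smaller gaps, and the log2 fold change of 0.29 (SE 0.080, 95% interval 0.10 to 0.47, 1.22-fold) missed the threshold (adjusted p = 0.253 from limma).

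KLF4, one of the factors used to reprogram cells to pluripotency, had log2 signals of 3.16 and 3.15 with GNE-140 in set 1, against 3.10, 2.90 and 3.15 in control. In set 2 it had 4.65 and 4.41 with GNE-140, against 4.22 and 4.42 in control. Its groups met or overlapped in both sets. The log2 fold change was 0.15 (95% interval -0.04 to 0.35, adjusted p = 0.578 from limma).

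KLF7, known from neuronal development, had a log2 signal of 4.22 on both GNE-140 arrays of set 1, against 4.05, 4.30 and 4.14 in control, and 5.07 and 5.09 with GNE-140 in set 2, against 5.04 and 4.97 in control. It had the estimate nearest to 0 among the members, a log2 fold change of 0.06 (95% interval -0.09 to 0.21, adjusted p = 0.788 from limma), and its interval left out a rise as large as the estimates of KLF6, KLF10 and KLF11. The exactly equal values of its GNE-140 arrays in set 1, whose origin is not known, may have narrowed that interval.

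KLF3, the CtBP-binding repressor, had log2 signals of 5.11 and 5.02 with GNE-140 in set 1, against 4.91, 5.12 and 5.02 in control. In set 2 it had 6.12 and 5.89 with GNE-140, against 5.79 and 5.53 in control. The groups overlapped in set 1 and were apart in set 2. Its log2 fold change was 0.19 (95% interval -0.04 to 0.41, adjusted p = 0.559 from limma), made up of 0.05 in set 1 and 0.35 in set 2.

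**Figure D2:**
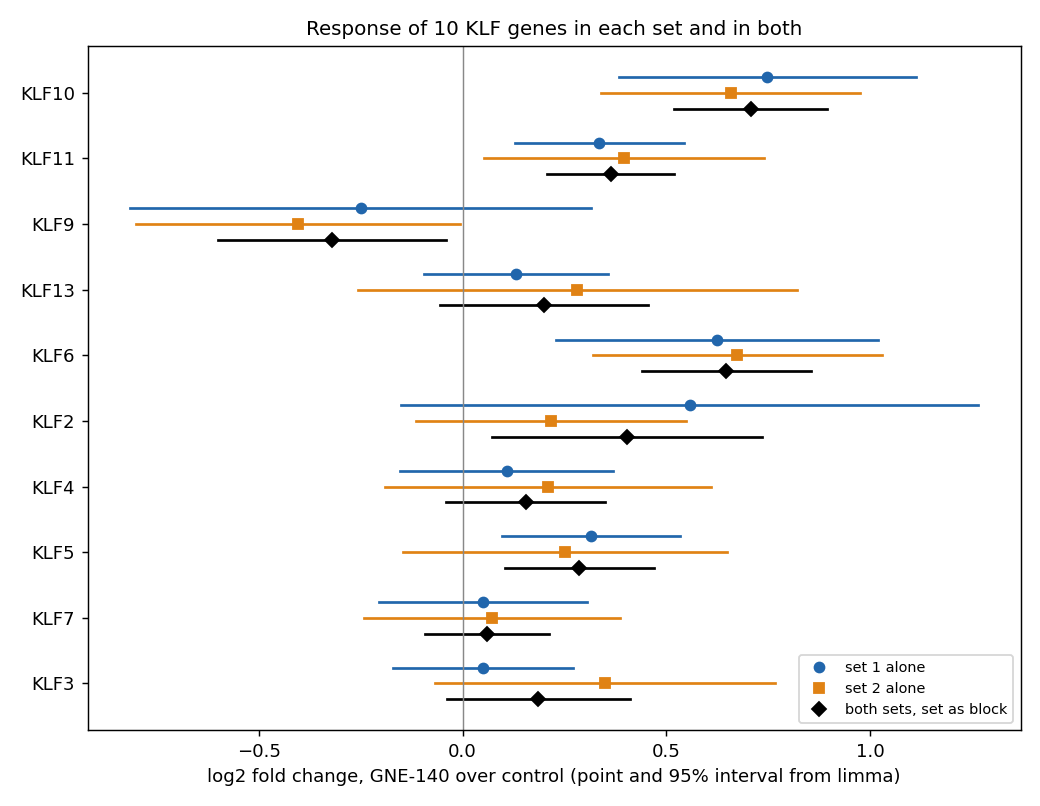
Log2 fold change of GNE-140 over control (horizontal axis) for each KLF gene, with its 95% interval from limma, in set 1 alone (blue circles), in set 2 alone (orange squares) and over both sets with the set as a block (black diamonds). The intervals of KLF10, KLF6 and KLF11 lie above 0 in each of the 3 fits, and the combined intervals of KLF3, KLF4, KLF7 and KLF13 span 0.

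For 5 of the 10 genes (KLF2, KLF5, KLF6, KLF10 and KLF11) every GNE-140 array lay above every control array of its set in both sets, an order found for 2.72% of all probe sets. The opposite order in both sets was seen for 0 members and for 2.14% of all probe sets. Both shares include the 27899 probe sets with no symbol, and a probe set with equal values on all arrays of a set can show neither order. Taken alone, neither set gave a member past the adjusted threshold. In set 1, 0 members and 0% of all probe sets passed, and at an unadjusted p under 0.05 there were 4 members (KLF5, KLF6, KLF10 and KLF11, all higher), against 4.6% of all probe sets. In set 2, again 0 members and 0% passed, and unadjusted there were 4 members (KLF6, KLF10 and KLF11 higher, KLF9 lower), against 10.4%. When the spread was estimated over all 9 arrays in 4 groups, KLF10 and KLF6 passed within set 2 (adjusted p = 0.0685 and 0.0827 from limma) and no member passed within set 1.

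The responses of the 2 sets were also compared directly, as the response in set 2 minus that in set 1. No member passed (adjusted p of 0.701 to 0.978 from limma) and 0 had an unadjusted p under 0.05, against 0.0541% and 8.36% of all probe sets. The difference was widest for KLF2, at -0.34 (95% interval -1.01 to 0.33), and KLF3, at 0.30 (95% interval -0.11 to 0.71). For KLF10 it was -0.09 (95% interval -0.48 to 0.31) and for KLF6 0.05 (95% interval -0.40 to 0.50), intervals far wider than the differences themselves. Without the set in the model the difference in scale between the sets entered the spread, and 0 members passed, as did 0% of all probe sets. KLF6 alone then had an unadjusted p under 0.05, against 1.12% of all probe sets, and the members' median log2 fold change was 0.31, beside 0.085 over all probe sets.

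KLF10 kept its call in all 9 fits that left out an array, with adjusted p from 0.0204 to 0.0740 and log2 fold changes from 0.65 to 0.75. KLF6 kept it in 6 of the 9 fits (0.0317 to 0.103) and KLF11 in 1 (0.0783 to 0.193). No other member reached the threshold in any of these fits, and no member changed sign.

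**Figure D3:**
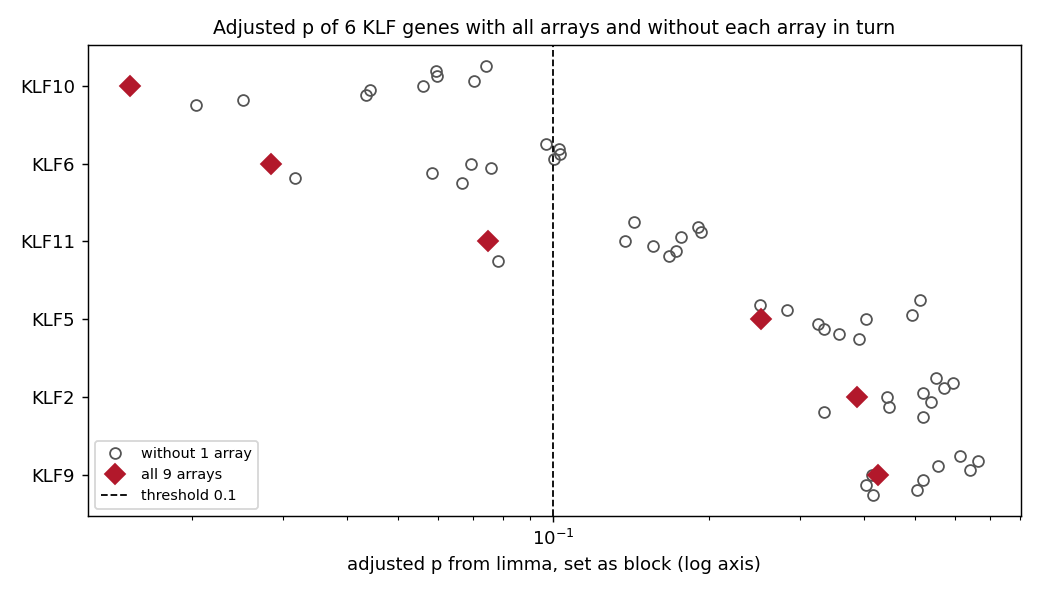
Adjusted p from limma with the set as a block (horizontal log axis) for the 6 KLF genes with an unadjusted p under 0.05, with all 9 arrays (red diamonds) and without each array in turn (open circles). The dashed line is the threshold of 0.1: all circles of KLF10 lie to its left, 6 of 9 for KLF6, 1 of 9 for KLF11 and none for KLF5, KLF2 and KLF9.

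Of the 10 genes, 8 matched 13 start regions in the RefSeq table, KLF3 and KLF10 having no entry there. GGGCGG was present on either strand of 8 of the 13 regions, covering 7 of the 8 genes, and in 45% of 35116 promoters of the same length. CACCC was present in 7 of the 13 regions, covering 4 of the 8 genes (KLF5, KLF7, KLF11 and KLF13), and in 59.9% of all promoters. Matches of the 2 motifs overlapped 1 time, in the region of KLF13. The region of KLF9, the gene with the negative estimate, held neither string at a GC content of 32.7%, and that of KLF2 held 6 GGGCGG and no CACCC. These are counts of letters and not of bound sites, and some of the regions of 1 gene lie close together.

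The rest of the family and the related SP genes gave no calls. Of 7 further KLF genes measured (KLF1, KLF8, KLF12, KLF14, KLF15, KLF16 and KLF17), 0 passed, 0 had an unadjusted p under 0.05, and their median log2 fold change was 0.03. Of the 9 SP genes, which share the zinc fingers and bind GC boxes, 0 passed, at a median of -0.06. Only SP4 had an unadjusted p under 0.05, at -0.48 (adjusted p = 0.368 from limma). Only 3 of these 7 KLF genes and 6 of the 9 SP genes lay above the array median on all 9 arrays. KLF15, KLF17 and SP8 did on none, so that dim signals limit what these counts can show. KLF17 and SP1 had the same value on every array of set 1 and so could not show a change there.

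The partner proteins of the family did not pass the test either. Among 10 corepressors and coactivators, 0 passed. At an unadjusted p under 0.05, 4 were higher and 3 lower, against 6% and 4.42% of all probe sets. SIN3A, the corepressor bound by KLF9, KLF10, KLF11 and KLF13, had log2 signals of 5.24 and 4.91 with GNE-140, against 5.28, 5.40 and 5.28 in control of set 1, and 6.10 and 6.13 with GNE-140, against 6.58 and 6.45 in control of set 2. The GNE-140 arrays were the lower ones in both sets, yet the log2 fold change of -0.32 had an adjusted p of 0.229 from limma. CTBP2, a partner of KLF3, was at 0.32 (adjusted p = 0.466) and the deacetylase HDAC1 at -0.27 (adjusted p = 0.340). The coactivators CREBBP and EP300 were at 0.24 and 0.27 (adjusted p = 0.220 and 0.412 from limma). For CREBBP every GNE-140 array lay above every control array of its set in both sets. The same order held for FBXO32, DUSP1, JUNB, IER2 and SRF, which are named below and did not pass either. Of 4 ubiquitin ligases known to act on KLF proteins, 0 passed. The largest estimate among them was that of FBXO32, which targets KLF4, at 0.58 (adjusted p = 0.218 from limma).

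The gene lists for pathways known to induce KLF genes gave few calls. The TGF-beta list, which holds ligand, receptors, SMAD proteins and the targets SMAD7 and SKIL, had 0 of 8 measured genes past the threshold. Its median log2 fold change was -0.02, and none of its genes had an unadjusted p under 0.05. SMAD7 had the same value on every array of set 1 and so could not show a change there. The activity of the pathway itself was not tested. The list of the ERK5 and MEF2 cascade, which drives KLF2 and KLF4 in endothelium, had 0 of 7 and a median of 0.0011. The kinase MAP3K2 was at 0.38 (adjusted p = 0.304 from limma), and MEF2A had the same value on every array of set 1. This list holds mRNAs of the cascade's own members, and the activity of the cascade was not tested. The glucocorticoid list, whose receptor induces KLF9, had 0 of 6 and a median of 0.07. Its largest estimate was that of the phosphatase DUSP1, at 0.56 (adjusted p = 0.113 from limma), followed by the clock gene PER1 at 0.39 (adjusted p = 0.455) and TSC22D3, at -0.20 (adjusted p = 0.457). In set 1, where PER1 and TSC22D3 each had only 2 distinct values, they were at 0.02 and -0.03. In set 2 alone they were at 0.84 and -0.40. Of the 6 genes of the glucocorticoid list, 4 lay above the array median on all 9 arrays, and the activity of the receptor was not tested.

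The serum response list, to which early KLF genes are often likened, was the one with most calls, at a median of 0.16. Of its 11 measured genes 3 rose, where 0.433% of all probe sets did, and 0 fell, where 0.532% did. EGR1, an early growth response zinc finger factor that also binds GC boxes, had log2 signals of 6.56 and 6.64 with GNE-140 in set 1, against 4.66, 4.73 and 4.76 in control, and 7.79 and 7.76 with GNE-140 in set 2, against 6.80 and 7.03 in control. The groups were far apart in both sets, and the log2 fold change of 1.42 (SE 0.188, 2.67-fold, adjusted p = 0.0248 from limma) was a larger estimate than that of any of the 10 KLF genes. The estimate was 1.88 in set 1 alone and 0.86 in set 2 alone. The response in set 2 minus that in set 1 was -1.02 (95% interval -1.34 to -0.71), which did not pass after adjustment (adjusted p = 0.179 from limma). MYC, the growth-promoting factor, rose by 0.51 (adjusted p = 0.0350 from limma) and IER3, an early response gene linked to cell survival, by 0.49 (adjusted p = 0.0584). Without 1 array in turn EGR1 kept its call in all 9 fits. MYC lost it without any of the 4 arrays of set 2 (adjusted p of 0.109 to 0.124 from limma), and IER3 lost it without any array other than control B of set 1 (adjusted p of 0.112 to 0.173). JUNB, at 0.54, and IER2, at 0.42, did not pass (adjusted p = 0.304 and 0.309 from limma). Nor did JUN at 0.16, FOS at 0.15, SRF at 0.14, FOSB at 0.07, ATF3 at 0.02 and EGR3 at -0.12. FOS was at 0.40 in set 1 alone and -0.16 in set 2 alone.

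Genes described as KLF targets were mixed. Of 7 cell cycle genes, 2 rose and 0 fell, against 0.433% and 0.532% of all probe sets. CDKN1A, the p21 inhibitor of cyclin-dependent kinases and a target of KLF4 and KLF6, had log2 signals of 4.24 and 4.42 with GNE-140 in set 1, against 3.58, 3.37 and 3.71 in control, and 5.82 and 5.65 with GNE-140 in set 2, against 4.99 and 4.77 in control. Its groups did not overlap, and the log2 fold change was 0.81 (adjusted p = 0.0150 from limma). ODC1, the polyamine-synthesis enzyme that KLF4 represses, rose by 0.58 (adjusted p = 0.0251), and both kept their calls in all 9 fits that left out an array. CCNB1, the mitotic cyclin, was at -0.41 (adjusted p = 0.181 from limma). Against 0.532% of all probe sets, 1 of 6 targets of KLF5 fell. This was BIRC5, the survivin gene, at a linear fold of 0.499 (adjusted p = 0.0871 from limma), a call that was lost without any array other than GNE-140 A of set 1 (adjusted p of 0.108 to 0.265), and the growth factor PDGFA was at 0.28 (adjusted p = 0.334). Of 5 endothelial targets of KLF2 or KLF4 that were measured, 0 passed and 0 had an unadjusted p under 0.05, at a median of -0.06. Only 2 of these 5 lay above the array median on all 9 arrays, and TEK did on none, so that dim signals limit what this count can show.

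**Figure D4:**
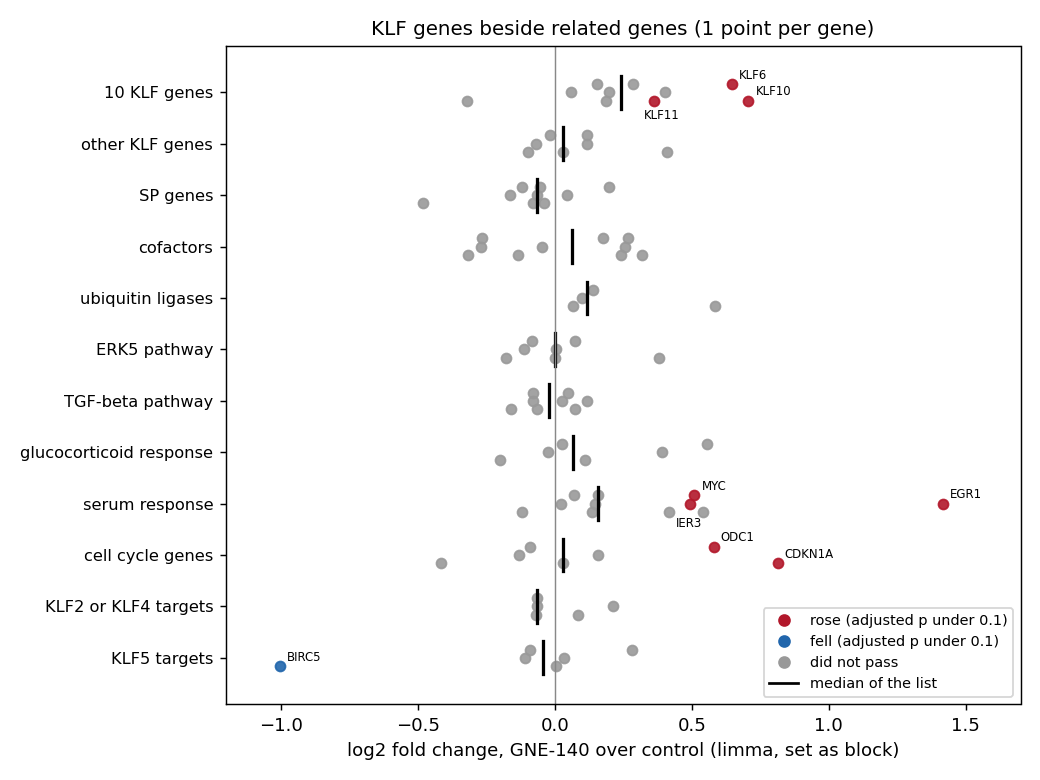
Log2 fold change of GNE-140 over control from limma with the set as a block (horizontal axis), 1 point per gene, for the 10 KLF genes and 11 lists of related genes; red points rose and blue points fell at an adjusted p under 0.1, grey points did not pass, and black bars are medians. The median of the 10 KLF genes lies at 0.24, and that of each other list between -0.06 and 0.16.

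The array-to-array pattern of KLF10, the member with the smallest p, was most like that of ABL2, a tyrosine kinase gene (Pearson r = 0.996), NQO1, a quinone reductase gene (r = 0.991), and UGDH, which encodes UDP-glucose dehydrogenase (r = 0.989), over the 9 arrays after each set's mean was removed. These 3 are the highest values among all genes with 1 symbol and are given as a description, since all arrays and the contrast between groups are shared. ABL2 rose by 0.60, NQO1 by 0.96 and UGDH by 0.84 on the log2 scale (adjusted p = 0.0248, 0.0205 and 0.00268 from limma).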

How the data were processed

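The authors deposited 1 column of log2 signals per array, computed from the scans in Expression Console according to their methods and in Transcriptome Analysis Console according to the submitters' processing notes. How these tools summarized, background-corrected and normalized the probes, and their versions, are not stated in either source, so that low or repeated values could not be traced to a step. Scanner files were not used here. Arrays were grouped by title and treatment label, and the number of arrays limits the precision.

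Probe sets were named through the platform annotation (23866 probe sets with 1 symbol, 1852 with several, 27899 with none). GNE-140 was compared with control with limma 3.58.1 in R 4.3.3 (lmFit, eBayes, two-sided), with the set as a block, within each set, without the set and as the interaction of set and treatment. P-values were adjusted by Benjamini-Hochberg over all 53617 probe sets, and the threshold of 0.1 and the fold of 2 follow the study's methods. Intervals are at 95%. The procedure was tested on simulated data.

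The members and the related lists were chosen with earlier results of these data known. Named are all members, list genes that passed, at most 3 others a list by absolute log2 fold change (narrowed afterwards to an unadjusted p under 0.05), and the 3 genes most like KLF10. Beyond this rule, CREBBP, EP300 and the rest of the serum response list are named. Some genes of the lists are not reported here, and counts are over the genes measured. Start regions are RefSeq's (GRCh38.p14).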

Additional observations from a re-analysis of the deposited data

How the results depend on the processing

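No KLF gene changed sign under any alternative. Of 200 values of the 10 members under the alternatives, 175 stayed on their side of the threshold and 25 lost it. All 25 belong to the 3 genes that rose, since the other members had no call to lose. Apart from the fits that left out an array, KLF10 and KLF6 each kept the call in 7 of 11 alternatives and KLF11 in 5. Of 380 values of 19 related genes, 325 stayed, 45 lost it and 10 gained it, the 45 again all from genes that had passed. The 3 members that rose with the set as a block became 0 without the set term, with the replicate block, in set 1 alone and in set 2 alone, and the 517 probe sets past the threshold became 0 under each of the same settings. Without 1 array in turn there were 1 to 3 members and 155 to 528 probe sets, with 157 without control A, 202 without control B, 185 without GNE-140 A and 155 without GNE-140 B of set 2, and 336 without control B of set 1. The count over all probe sets was 847 among the brighter probe sets only, 879 among those with 1 symbol and 1152 with the mean of both within-set contrasts, while the members stayed 3 in each of these. Within set 2, a shared spread over 4 groups gave 2 members in place of 0. The members that fell stayed 0 throughout.

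The arrays of a set share only a letter. Deviations of same-lettered arrays from their group means correlated at 0.03 for 1A, -0.15 for 1B and -0.0025 for 2A and 2B. In set 2, with 2 arrays a group, the values for 2A and 2B are equal by construction and count as 1. With set and letter as a replicate block the log2 fold changes of KLF10, KLF6 and KLF11 were 0.71, 0.60 and 0.35 (adjusted p = 0.177, 0.220 and 0.353 from limma), a fit that also sets aside control C of set 1, which has no partner. A mean over several probe sets of a gene could not differ, since each member has 1. Arrays have no depth; with 2 or 3 arrays a group and no detection calls, small changes of dim genes such as KLF13 were not detectable.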
